A study of Mus musculus with 2 samples.

Results

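The 8 genes examined belong to the epithelial tight junction: *Cldn9*, *Cldn11*, *Cldn14*, *Marveld2*, *Ildr1*, *Ocln*, *Tjp1* and *Cgn*, out of 21938 protein-coding genes in all. They are a list of names, and the rule that chose them uses no measured value, although earlier results of these data were known when the list was made. Chromatin accessibility at them was read from 2 lists of ATAC-seq peaks, made from P2 mice. The tissue was the organ of Corti, the sensory epithelium of the cochlea with its hair cells and supporting cells. One list was labelled WT and the other *Bmi1* KO (Bmi1-/-), and they are called the WT-labelled and KO-labelled list. Both genotypes were littermates from Bmi1+/- parents (FVB.129P2-Bmi1tm1Brn/MvlJ) that had been crossed back to C57BL/6J, and the Bmi1-/- mice carried the null allele in every cell of the body from conception. Each list came from 1 library of 10 pooled mice, so there was no replicate, and every interval below covers counting error only. A peak belonged to a gene when its centre lay within 3 kb of any of its annotated transcription start sites (TSSs), in the gene body, or in the 10 kb upstream. By this rule the 8 genes held 33 of 77596 peaks labelled WT and 44 of 100431 peaks labelled Bmi1-/-.

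The peak names inside the lists carried the prefix of the opposite genotype for 100% of the peaks in both lists. Every direction given here follows the genotype in the labels, and would turn if the names were right. The promoter of *Bmi1* itself held a peak in both lists, of 17 reads at the summit in the WT-labelled list and 29 in the KO-labelled list, at the 40.1st and 92.0th percentile of the lists. Whether the deleted part of the gene includes these positions is not given in the sources used here, so they do not check the labels.

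Tight junctions seal the space between neighbouring epithelial cells. Claudins form the strands that close the gap and set which ions pass, tricellulin and the angulins close the points where 3 cells meet, occludin accompanies the strands, and scaffold proteins beneath the membrane tie them to the actin cytoskeleton. In the organ of Corti these seals keep the potassium-rich endolymph above the hair cells apart from the perilymph around their bodies, and loss of several of these proteins causes deafness.

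The lists differed in depth, as far as they show it. The number of reads under each summit was worked out from the 2 values that MACS2 gives of it, its enrichment and its −log10 p. The commonest local background was 6.32 reads in the WT-labelled list and 8.04 in the KO-labelled list, a ratio of 1.27. The smallest summits listed held 13 and 15 reads, so a missing peak does not show closed chromatin. Peaks were therefore ranked within their own list by −log10 p, as a percentile, and summit reads were compared after division by the commonest background. A promoter peak was found for 7 of 8 hair cell markers in the WT-labelled list and 6 in the KO-labelled list. The corresponding numbers were 8 and 7 of 8 for supporting cells, 4 and 6 for neurons, 5 and 5 for glia, 4 and 5 for mesenchyme, 6 and 5 for endothelium, and 3 and 3 for blood and macrophages. Of all protein-coding genes, 59.1% had a promoter peak in the WT-labelled list and 68.2% in the KO-labelled list. Whether the markers differ from these shares was not tested, so the counts do not show which cells were present. No marker of blood and macrophages had a promoter peak in both lists, beside 53.0% of all protein-coding genes. What these cell types added to the member peaks was not tested.

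The sequences at 4 kinds of promoter are shown first. *Cgn* and *Ocln* had peaks of both lists within the 250 bases before the TSS, *Tjp1* just after the TSS, *Ildr1* and *Marveld2* had a peak in 1 list, and *Cldn11* had a peak labelled WT just after the window and one labelled Bmi1-/- further upstream. The sequences are those of RefSeq on GRCm38.p6, for the most upstream TSS in that table, which held 7 of the 8 genes and not *Cldn9*. Capitals mark matches on either strand to GGGCGG for the GC box, to CCAAT for the CCAAT box, to TATAAA for the TATA box, to CACCTG for an E-box, to AACCGGTT for grainyhead factors and to ACAATG for Sox factors. The last capitals of *Ildr1* begin a GC box that runs on past the TSS.
Cgn: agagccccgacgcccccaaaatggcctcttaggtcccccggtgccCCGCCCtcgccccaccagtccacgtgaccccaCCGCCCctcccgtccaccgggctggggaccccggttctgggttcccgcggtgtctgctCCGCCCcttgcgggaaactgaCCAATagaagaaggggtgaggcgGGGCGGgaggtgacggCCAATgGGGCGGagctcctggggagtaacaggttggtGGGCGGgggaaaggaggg
Ocln: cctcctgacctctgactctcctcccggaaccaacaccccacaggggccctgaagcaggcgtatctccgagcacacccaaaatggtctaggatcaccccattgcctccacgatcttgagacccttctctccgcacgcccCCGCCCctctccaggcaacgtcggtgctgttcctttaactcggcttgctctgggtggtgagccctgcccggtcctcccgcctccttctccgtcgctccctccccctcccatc
Tjp1: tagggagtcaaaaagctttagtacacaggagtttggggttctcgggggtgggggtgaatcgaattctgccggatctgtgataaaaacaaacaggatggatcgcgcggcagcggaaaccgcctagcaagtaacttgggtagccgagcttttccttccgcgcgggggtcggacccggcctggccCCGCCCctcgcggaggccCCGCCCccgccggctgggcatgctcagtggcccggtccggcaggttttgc
Ildr1: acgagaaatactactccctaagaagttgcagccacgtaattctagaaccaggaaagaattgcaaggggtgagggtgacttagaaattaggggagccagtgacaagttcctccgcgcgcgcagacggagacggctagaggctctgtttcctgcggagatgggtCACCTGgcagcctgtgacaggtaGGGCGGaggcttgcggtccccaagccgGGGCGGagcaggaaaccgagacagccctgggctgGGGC
Marveld2: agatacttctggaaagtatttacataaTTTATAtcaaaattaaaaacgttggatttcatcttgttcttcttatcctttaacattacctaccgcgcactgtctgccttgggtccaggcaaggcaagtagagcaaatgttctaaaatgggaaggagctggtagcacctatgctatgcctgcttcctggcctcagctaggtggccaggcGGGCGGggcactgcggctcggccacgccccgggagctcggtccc
Cldn11: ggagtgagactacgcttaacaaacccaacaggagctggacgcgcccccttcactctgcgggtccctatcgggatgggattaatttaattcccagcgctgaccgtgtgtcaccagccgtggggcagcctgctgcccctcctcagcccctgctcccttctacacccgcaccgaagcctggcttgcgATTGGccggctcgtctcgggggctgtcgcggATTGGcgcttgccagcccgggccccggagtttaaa
They lie on the minus strand at chr3:94786483-94786732 (*Cgn*), chr13:100552719-100552968 (*Ocln*), chr7:65371245-65371494 (*Tjp1*) and chr13:100616972-100617221 (*Marveld2*), and on the plus strand at chr16:36693728-36693977 (*Ildr1*) and chr3:31149670-31149919 (*Cldn11*). Of these 250 bases, the peaks labelled WT and Bmi1-/- covered 131 and 250 at *Cgn*, 229 and 250 at *Ocln*, 0 and 97 at *Ildr1*, and 5 and 0 at *Marveld2*. At *Tjp1* and *Cldn11* they covered 0 bases in either list.

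Across all 8 genes most peaks were found in 1 list only. Of the 33 peaks labelled WT, 8 overlapped a peak of the other list by at least 1 bp, which was 24.2% (exact binomial 95% interval 11.1 to 42.3%). The same share over all protein-coding gene regions was 28.9%. Of the 44 peaks labelled Bmi1-/-, 8 overlapped, which was 18.2% (8.19 to 32.7%), beside 21.9% over all gene regions. Both intervals include the share of all gene regions. They treat the peaks as independent, although some overlapping peaks share 1 partner, so they do not decide whether the members differ. The members' regions, 555 kb in all, held 5.94 peaks per 100 kb in the WT-labelled list and 7.92 in the KO-labelled list, beside 4.30 and 5.42 over all protein-coding gene regions. In both lists the density was thus higher than over all gene regions. In a whole tissue, fewer cells of a type and less accessible chromatin per cell cannot be told apart.

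The member peaks were low. Their summits held 14 to 27 reads (median 19) in the WT-labelled list and 17 to 32 reads (median 22) in the KO-labelled list, and the median of all peaks was the same, 19 and 22. A q-value under 0.05 was reached by 17 member peaks labelled WT (51.5%, beside 53.5% of all gene region peaks) and by 30 labelled Bmi1-/- (68.2%, beside 64.6%). Of the members' promoter peaks, 5 of 8 labelled WT overlapped a peak of the other list, beside 48.8% of the promoter peaks of all protein-coding genes, and 4 of 12 labelled Bmi1-/-, beside 36.6%. Elsewhere in the regions 3 of 25 peaks labelled WT overlapped, beside 15.4% for all genes, and 4 of 32 labelled Bmi1-/-, beside 12.1%. Each count lies within 2 peaks of what the share of all genes gives, and the difference between promoters and the rest was not tested at the members. Overlapping peaks had a median of 22.5 summit reads in the WT-labelled list and 27.5 in the KO-labelled list, and those without overlap 18 and 22. Introns held 18 peaks labelled WT and 33 labelled Bmi1-/-, exons 9 and 6, and the upstream stretch 6 and 5.

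**Figure D1:**
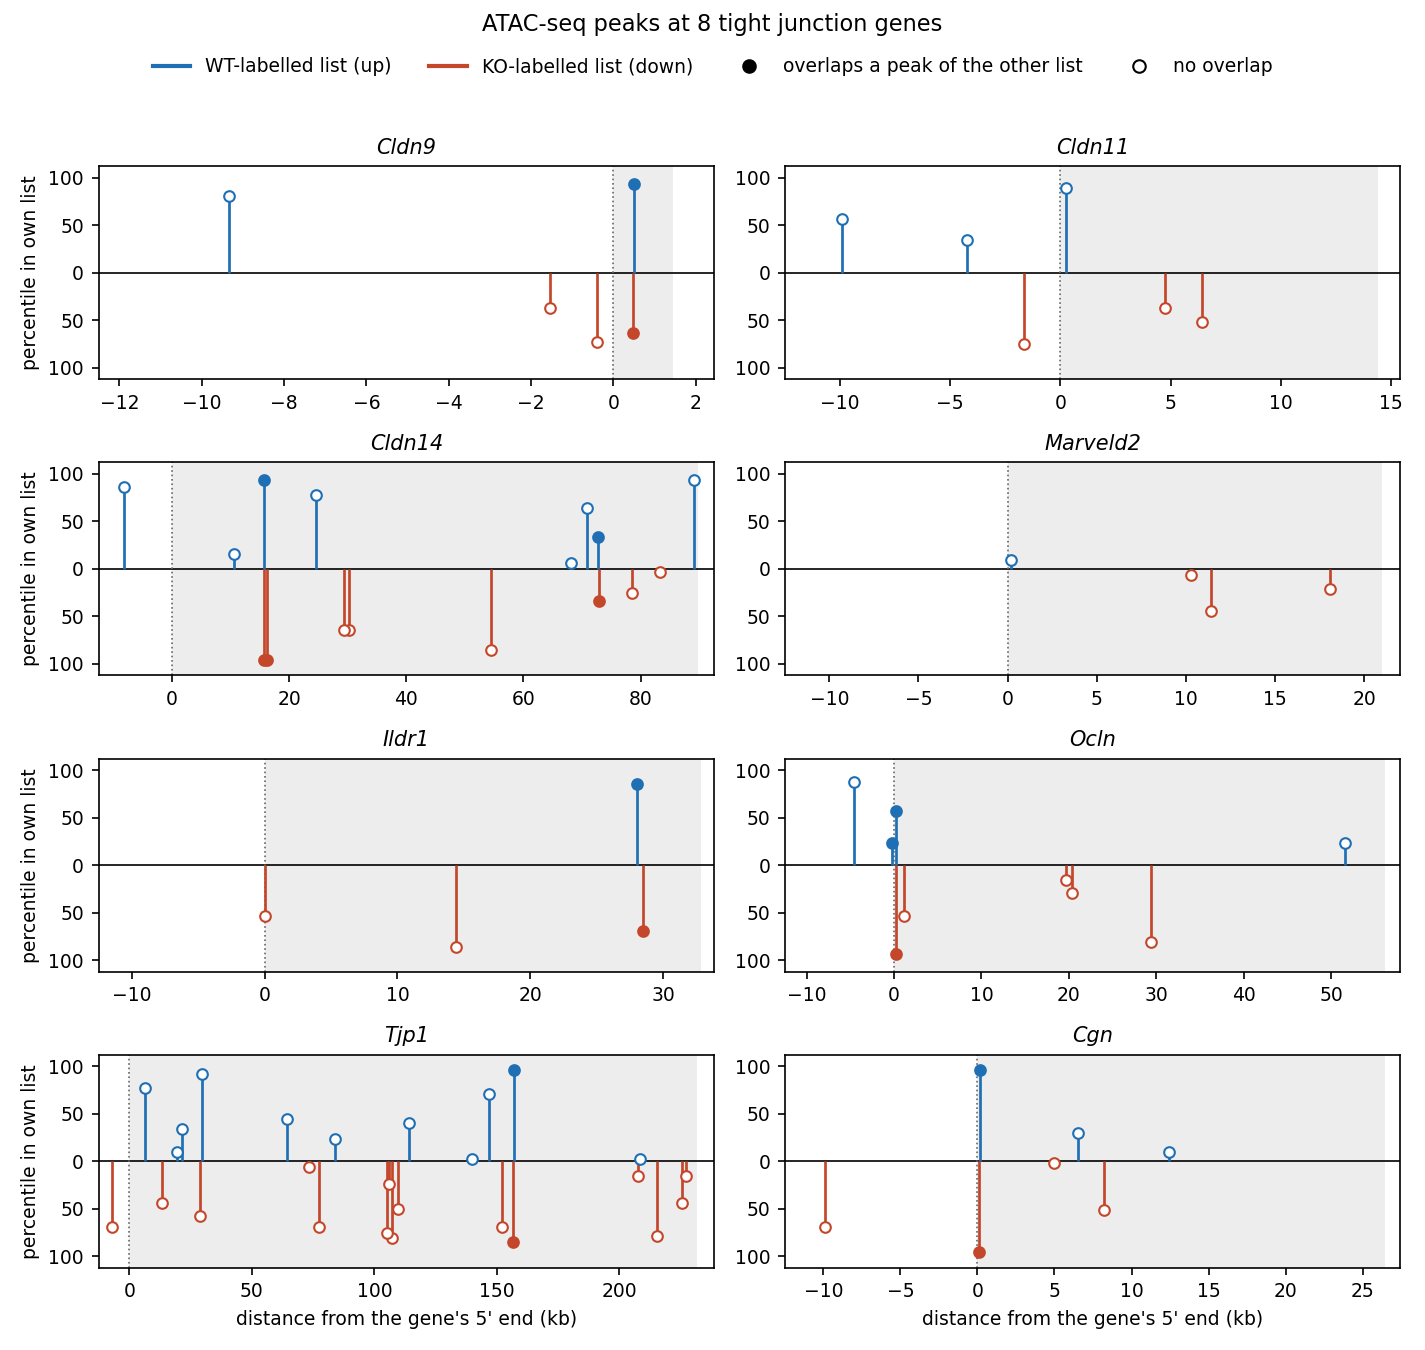
Each panel shows 1 gene, with the distance of each peak centre from the annotated 5' end in kb on the x axis and the percentile of the peak within its own list on the y axis, upward for the WT-labelled list and downward for the KO-labelled list. The grey area is the gene body, filled points overlap a peak of the other list and open points do not; filled points cluster near the 5' ends of *Cldn9*, *Ocln* and *Cgn*, at an internal TSS of *Tjp1*, and in the bodies of *Cldn14* and *Ildr1*.

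Among the claudins, *Cldn9* was the only one of the 3 whose promoter peaks overlapped between the lists. *Cldn9* (ENSMUSG00000066720.7) is a claudin of the organ of Corti whose loss deafens mice, with its single TSS at 23684026 on the minus strand of chromosome 17 and a body of 1.44 kb. A peak in its coding exon was listed at chr17:23683353-23683711 in the WT-labelled list, with 25 summit reads at the 93.8th percentile. The peak labelled Bmi1-/- at chr17:23683394-23683708 had 26 reads and stood at the 63.2nd percentile. The summits thus differed by 1 read, while the percentiles, set within lists of unequal depth, stood far apart. After division by background the ratio Bmi1-/- over WT was 0.818 (exact conditional 95% interval 0.454 to 1.48). The KO-labelled list held 2 further promoter peaks, centred 410 and 1528 bases upstream of the TSS. The stronger, at chr17:23683958-23684913 with 26 reads at the 72.5th percentile, covered the TSS itself, where no peak was labelled WT. The WT-labelled list held 1 more peak, 9.34 kb before the TSS, at the 81.0th percentile.

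*Cldn11* (ENSMUSG00000037625.7) makes the basal cell seal of the stria vascularis, a tissue that was taken off in the dissection. It had 3 peaks in each list and none overlapped. Its promoter peak labelled WT lay in a coding exon, at chr3:31149988-31150355, with 27 reads at the 89.3rd percentile. The promoter peak labelled Bmi1-/- lay upstream, at chr3:31148136-31148381, with 29 reads at the 74.6th percentile. The promoter thus counted as having a peak in both lists, at different places, 1 in the exon and 1 that is 1661 bases upstream of the TSS.

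*Cldn14* (ENSMUSG00000047109.13), whose loss causes deafness in humans and mice, is spread over 89.8 kb of chromosome 16 with 4 annotated TSSs, and held 8 peaks in each list. Its promoter peaks were the weakest of those present in both lists. The peak labelled WT had 17 reads at the 6.32nd percentile, near the TSS of a processed transcript at 93942384. The peak labelled Bmi1-/- had 20 reads at percentile 25.05, near the protein-coding TSSs at 93929567 and 93929817. Neither reached a q-value under 0.05, they did not overlap, and the most upstream TSS, at 94008837, had no peak within 3 kb in either list. A peak in a coding exon near the 3′ end of the gene was found in the WT-labelled list only, at chr16:93919542-93919900, with 25 reads at the 94.1st percentile.

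The strongest accessible site of *Cldn14* that both lists shared was intronic. The peak labelled WT at chr16:93992668-93993488 had 25 reads at the 93.1st percentile. It overlapped 2 peaks labelled Bmi1-/-, at chr16:93992287-93992813 with 30 reads (96.2nd percentile) and at chr16:93992953-93993397 with 29 reads (95.3rd percentile), and the first of these was the only member peak in either list with a −log10 q of at least 5 (5.38). The first pair shared 146 bases and its summits lay 879 bases apart. The second shared 445 bases, with summits 105 bases apart. The ratios were 0.943 (0.536 to 1.67) and 0.912 (0.516 to 1.62), and both intervals included 1. The first ratio compares reads at different positions, so it does not show an unchanged site. The sequence is shown because it repeats itself: these 200 bases lie midway between the summits labelled WT and Bmi1-/- of the second pair, at chr16:93993153-93993352 on GRCm38.p6, written on the minus strand of the gene, and hold 0 matches to the motifs above.
Cldn14 intron: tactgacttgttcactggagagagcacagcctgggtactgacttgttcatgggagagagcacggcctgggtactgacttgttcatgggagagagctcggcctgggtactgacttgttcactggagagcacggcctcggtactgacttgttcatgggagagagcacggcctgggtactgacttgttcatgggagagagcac
Shifted by 35 bases, the window was 80.0% identical to itself. The whole peaks were 57.9% identical at the best shift of 5 to 60 bases in the WT-labelled list, and 67.6% and 59.3% in the KO-labelled list, above 97.9%, 98.96% and 98.2% of the peaks of their lists. The other 74 member peaks had a median of 33.6% (28.7 to 65.8%). Whether reads with several mapping positions were kept is not given in the sources used here, and the part of the repeat in these peaks was not tested.

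The 2 genes of the tricellular contacts each had a promoter peak in 1 list. *Marveld2* (ENSMUSG00000021636.15), which encodes tricellulin and is a human deafness gene, had 1 peak labelled WT, at chr13:100616632-100616976 across its 4 TSSs, with 15 reads at the 9.68th percentile. No promoter peak was labelled Bmi1-/-, where 3 weak peaks lay in introns, 10.0 to 17.8 kb from a TSS, with 17 to 20 reads. The promoter peak had a q-value above 0.05 and its 15 reads (95% interval 8.40 to 24.7) were 2 above the smallest summit of that list, so its absence from the other list does not show a difference.

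*Ildr1* (ENSMUSG00000022900.14), an angulin that brings tricellulin to tricellular contacts and is also a human deafness gene, showed the opposite pattern. Its promoter peak, at chr16:36693881-36694096 over the TSS and the first exon, was found in the KO-labelled list only. It had 23 reads (14.6 to 34.5) at the 53.8th percentile and a −log10 q of 1.65. This was close to the median summit of that list, 22 reads, and the lists differ in depth. Absence of the peak from the WT-labelled list thus does not show a difference either. Both lists held a peak in a coding exon 6.46 and 6.91 kb beyond the nearest TSS, at chr16:36721837-36722158 with 21 reads and chr16:36722108-36722782 with 22 reads. They shared 51 bases, their summits lay 654 bases apart, and the ratio was 0.824 (0.432 to 1.57). A further peak in the KO-labelled list lay in a coding exon at chr16:36708311-36708516, with 26 reads at the 86.1st percentile.

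*Ocln* (ENSMUSG00000021638.12) encodes occludin, the first membrane protein found at tight junctions. Its 5 TSSs lie close together, and a peak labelled Bmi1-/- covered all 5. Peaks labelled WT covered those at 100552460, 100552481 and 100552498. The TSSs at 100552623 and 100552718 lay between the peaks labelled WT. In the WT-labelled list the promoter was split into 2 peaks, at chr13:100552376-100552578 with 18 reads (56.8th percentile) and chr13:100552740-100553242 with 16 reads (23.3rd percentile). In the KO-labelled list 1 peak, chr13:100552098-100552976, overlapped both, with 29 reads at the 93.0th percentile. Of the 3 genes whose strongest promoter peaks overlapped, *Ocln* had the highest ratio, 1.27 (0.680 to 2.42) against the stronger WT peak, and the interval included 1. Away from the promoter no *Ocln* peak was shared: the WT-labelled list had 2, 1 of them in an intron nearer to the TSS of *Gtf2h2* than to its own, and the KO-labelled list had 3 peaks in introns of 18 to 26 reads.

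The scaffold genes held the highest ranked promoter peaks of the WT-labelled list, and *Cgn* that of the KO-labelled list. *Tjp1* (ENSMUSG00000030516.14) encodes ZO-1, which binds claudins, occludin and actin. The gene spans 231.6 kb, and its shared peak lay at the internal TSSs at 65371015 and 65371239 on chromosome 7. It had 24 reads in both lists, at chr7:65370694-65371224 (96.5th percentile) in the WT-labelled list and chr7:65370900-65371213 (84.3rd percentile) in the KO-labelled list, with summits 3 bases apart. The ratio after division by background was 0.786 (0.427 to 1.45). The most upstream TSSs, at 65527696 and 65527781, had no peak within 3 kb in either list. *Tjp1* also had the most peaks of the 8 genes, 11 labelled WT and 15 labelled Bmi1-/-, and only the promoter peak was shared. The KO-labelled list held 4 intronic peaks between 65418187 and 65422882, of 19 to 24 reads, where the WT-labelled list held none.

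*Cgn* (ENSMUSG00000068876.14) encodes cingulin, which links ZO-1 to myosin and to small GTPase signalling. Its promoter had the most even ranks, with 24 reads at chr3:94786092-94786613 (95.8th percentile) in the WT-labelled list and 32 reads at chr3:94785961-94786778 (95.1st percentile) in the KO-labelled list. The peak labelled WT lay wholly within the wider one. The ratio was 1.05 (0.598 to 1.86), and it fell below 1 under other scalings, to 0.960 when the median ratio of all genes was set to 1 and to 0.887 when each summit was divided by its own local background.

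**Figure D2:**
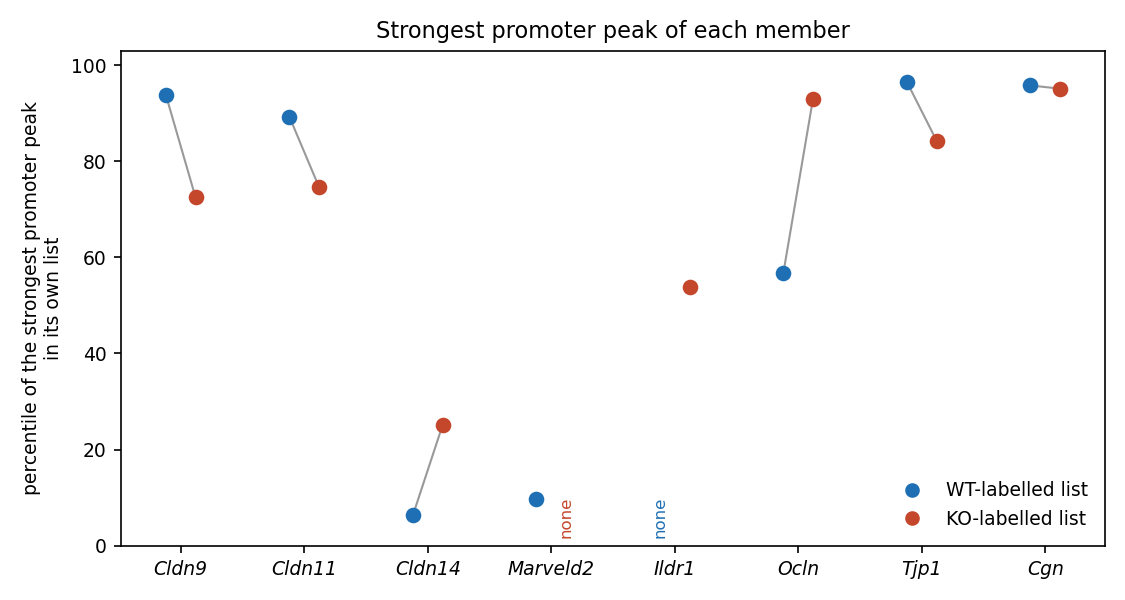
Percentile of the strongest promoter peak of each gene within its own list by −log10 p, in the WT-labelled list and in the KO-labelled list, with a line where both lists held a promoter peak and "none" where a list held no promoter peak. *Cgn*, *Tjp1*, *Cldn9* and *Cldn11* rank lower and *Ocln* and *Cldn14* higher in the KO-labelled list.

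Read together, 6 of the 8 promoters held a peak in both lists, beside 53.0% of all protein-coding genes. One was found in the KO-labelled list only, *Ildr1* (background 15.2%), and 1 in the WT-labelled list only, *Marveld2* (background 6.10%). Each list thus marked 7 of the 8 promoters, where it marked 59.1% (WT) and 68.2% (Bmi1-/-) of all genes. Peaks overlapped at 4 promoters, *Cldn9*, *Ocln*, *Tjp1* and *Cgn*, beside 40.4% of all genes. At a q-value under 0.05 no promoter peak of *Cldn14* or *Marveld2* was left, and 5 genes had one in both lists. With promoters of 1 kb to each side, *Cldn11* counted as marked in the WT-labelled list only and *Cldn14* in the KO-labelled list only. By percentile, 3 of the 8 genes stood higher in the KO-labelled list, *Cldn14*, *Ildr1* and *Ocln*, which was 37.5% (8.52 to 75.5%). The same was seen for 68.6% of the genes that had a promoter peak at all. The interval treats the 8 chosen genes as independent draws, and is too wide to decide whether they differ from all genes. The median percentile of the members' strongest promoter peaks was 89.3 in the WT-labelled list, above the 76.8 of all genes, and 74.6 in the KO-labelled list, below the 87.3 of all genes. Each of these medians rests on 7 members, with *Marveld2* only in the first and *Ildr1* only in the second. Their distance from all genes was not tested.

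At the 3 genes whose strongest promoter peaks overlapped, *Ocln*, *Tjp1* and *Cgn*, the median ratio of scaled summit reads was 1.05, beside 1.09 over the 6427 protein-coding genes with such a pair. None of the 3 reached 1.5 in either direction, which 7.56% of those genes did upward and 0.794% downward. Over all 9 overlapping pairs at the members the ratios ran from 0.786 to 1.42, and each interval included 1. The summits of a pair lay 3 to 879 bases apart, so not every ratio compares the same position. The summits of these pairs held 16 to 25 reads labelled WT and 21 to 32 labelled Bmi1-/-, and the intervals reached from 0.426 to 2.81.

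**Figure D3:**
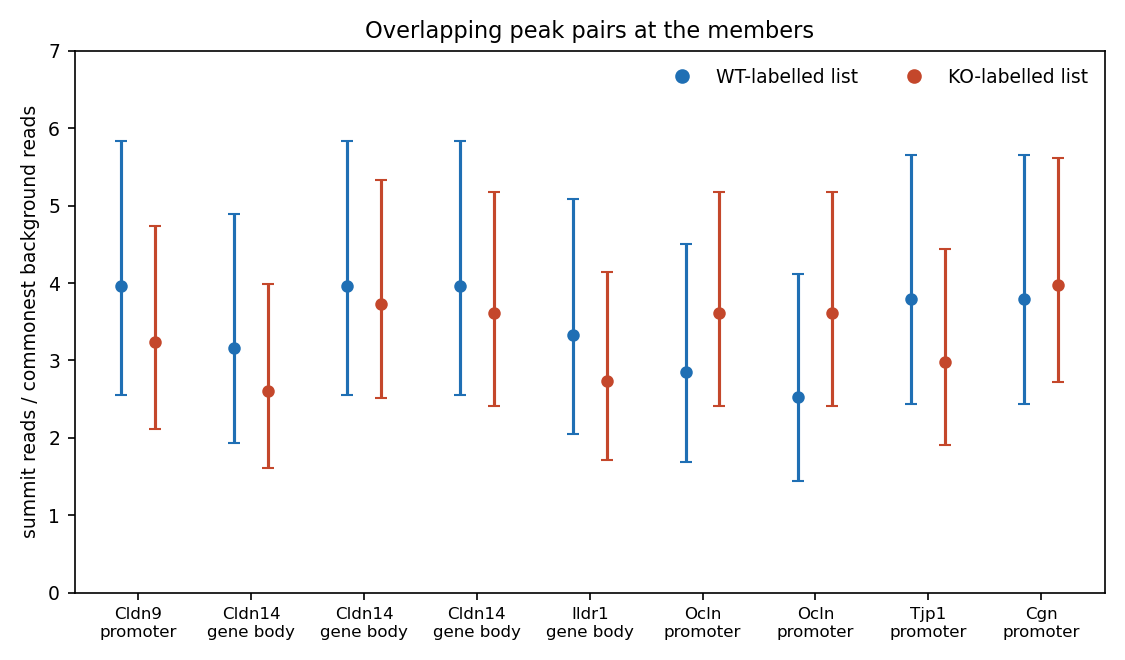
Reads at the summit divided by the commonest background reads of the list (y axis) for the 9 pairs of overlapping peaks at the members (x axis), with exact Poisson 95% intervals of the reads as bars. The bars of the lists overlap in every pair; the 2 *Ocln* pairs share 1 peak labelled Bmi1-/-, and 2 of the *Cldn14* pairs share 1 peak labelled WT.

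Of 39 other tight junction genes, 25 had a promoter peak in both lists (beside 53.0% of all genes), 6 in the KO-labelled list only (beside 15.2%), 0 in the WT-labelled list only (beside 6.10%) and 8 in neither. The 6 genes in the KO-labelled list only are about the share of all genes. The background for neither list is what 53.0, 15.2 and 6.10% leave of all genes, and no count was tested against it. A promoter peak in both lists was held by 13 of 14 scaffold and polarity genes, 8 of 18 other claudins and 4 of 7 other membrane proteins, and the difference between these groups was not tested. Among the members, the scaffold genes *Tjp1* and *Cgn* had the highest promoter percentiles of the WT-labelled list. In the KO-labelled list *Cgn* (95.1st) was also highest, but *Ocln* (93.0th) stood above *Tjp1* (84.3rd). Of the other claudins, 7 had no promoter peak in either list (*Cldn1*, *Cldn2*, *Cldn6*, *Cldn16*, *Cldn17*, *Cldn19* and *Cldn22*).

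The highest ranked of the 39 genes in the WT-labelled list were *Jam2*, a junctional adhesion molecule, with 32 reads (99.3rd percentile), *Pard6b*, a polarity protein, with 31 reads (98.8th), and *Mpp5*, the polarity scaffold PALS1, with 26 reads (97.8th). In the KO-labelled list these were *Magi3* with 49 reads (99.7th), *Mpp5* with 42 reads (99.3rd) and *Magi1* with 45 reads (99.2nd), both MAGI proteins being membrane-associated scaffolds. These summits were higher than any of the 8 members, whose highest promoter peaks had 27 and 32 reads, except that of *Mpp5* labelled WT. Among those marked in the KO-labelled list only, the highest ranked were *Jam3* with 27 reads (93.4th), *Cldn23* with 28 reads (87.5th) and *Amot*, which encodes angiomotin, with 23 reads (78.0th). Of the 31 that had a promoter peak at all, 20 ranked higher in the KO-labelled list, beside the 68.6% of all genes.

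**Figure D4:**
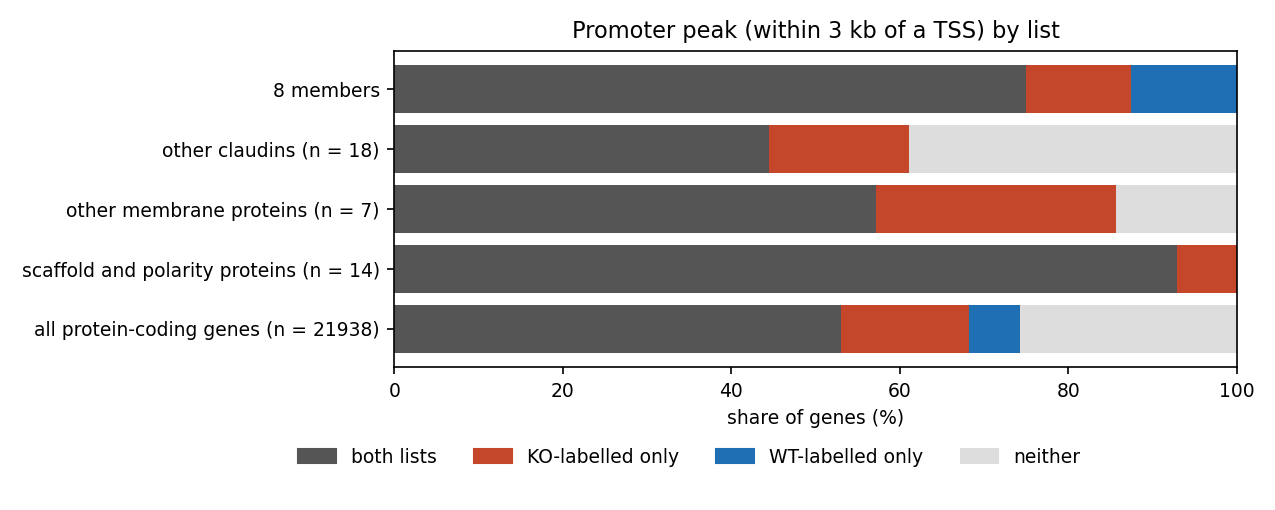
Share of genes (x axis, %) with a promoter peak in both lists, in the KO-labelled list only, in the WT-labelled list only or in neither, for the 8 members, 3 groups of other tight junction genes and all protein-coding genes (y axis). The scaffold and polarity genes have the widest bar for both lists (13 of 14), and the other claudins the widest for neither (7 of 18).

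The sequence around the TSSs was described over 300 bases, 250 before and 50 after the TSS, for the 7 members in the RefSeq table, beside 27018 genes. These 27018 were not limited to protein-coding genes, as the members are. The medians and shares of all windows are thus not those of protein-coding genes. The GC content was highest at *Cgn* (70.3%) and lowest at *Cldn14* (48.0%), beside a median of 52.7%. The ratio of observed to expected CpG ran from 0.467 at *Cldn14* to 0.972 at *Tjp1*, beside a median of 0.389. When protein-coding genes were split by this ratio into 3 groups of about equal size, none of the 7 was in the lowest group (up to 0.336), where 12.04% had promoter peaks that overlapped between the lists. *Tjp1* and *Marveld2* (0.824) were in the highest group, where 69.5% had them. The other 5 were in the middle group (0.336 to 0.766), where 45.5% had them. A GC box was found in 6 of the 7 windows, with 6 matches at *Cgn*, 3 at *Ildr1* and none at *Cldn14*, beside 35.9% of all windows. CCAAT was found in 3 (38.0% of all windows), the E-box letters in 3 (20.05%), TATAAA in 1, *Marveld2* (14.2%), the Sox letters in 1, *Cldn14* (12.8%), and the grainyhead letters in 0 (0.155%). These are letter matches on either strand, not binding sites.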

How the data were processed

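ATAC-seq was carried out by the study on the organ of Corti of P2 WT and Bmi1-/- mice, 1 library of 10 pooled mice per genotype. The authors removed adapters and poor bases, aligned the reads by BWA-MEM and ran MACS2 on each library separately. Per the labels the build was mm10 and FastQC, BWA, MACS2 and HOMER were used. Versions and MACS2 options are not given in the sources used here. The deposited lists hold, per peak, a fold enrichment (a ratio of pileup to local background, each with 1 added), a −log10 p and a −log10 q. The deposited score restates the −log10 p and was not used. Peaks were deposited from a −log10 p of 2.00 (WT) and 2.01 (Bmi1-/-), and a q-value under 0.05 was held by 52.4% and 62.8% of the peaks.

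Peaks outside chromosomes 1 to 19, X and Y, 230 and 237 of them, were left out. Genes and TSSs came from GENCODE vM21 (GRCm38), and sequences from RefSeq (GRCm38.p6). Pileup and background at each summit were solved from the fold enrichment and −log10 p, which gave whole reads for 100% of peaks in both lists (tolerance 0.001). The procedure was tested on simulated peaks. Depth is known only as this background, because the lists give no read totals. Intervals are exact 95% intervals, binomial for shares and conditional for ratios of reads, and cover counting error only. They treat the counted reads, peaks or genes as independent, and are too narrow where these are not. They also take no account of summits being the highest points of peaks kept above a cutoff. Python 3.11.15 with numpy 2.4.6, pandas 2.3.3, scipy 1.17.1 and matplotlib 3.10.9 was used.

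Since each genotype had 1 library, the genotypes were compared without a test and without p-values. Samples were grouped by the genotype in the labels. The 8 members and the gene lists were chosen with earlier results of these data known. Named are all members, any gene whose TSS was nearer than the member's to a member promoter peak (there was none), and, of the other tight junction genes, the 3 highest percentiles per list and the 3 highest among genes with a promoter peak in 1 list only. *Bmi1*, *Gtf2h2* and the claudins without a promoter peak were named outside this rule, after their values were seen, as was the repeat in *Cldn14*. Alternatives were stricter q-values, equal numbers of strongest peaks, other overlaps, windows and scalings, RefSeq transcripts and, added after the sequences had been seen, leaving out tandem repeats. RNA-seq and ChIP-seq data were not used here.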

Additional observations from a re-analysis of the deposited data

How the results depend on the processing

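Of 65 values under alternatives, 12 moved. The other 53 stayed within 1.5 times the main count, within the 95% interval of the main share or ratio or, for the median ratio, within the range of its 3 genes. Among these 53, the ratio at *Cgn* and the median ratio changed direction. Both went from 1.05 to 0.960 with a median ratio of 1 and to 0.887 with local backgrounds. The intervals are wide: with a reciprocal overlap of 50% the overlapping share was 12.1% (WT) and 9.09% (Bmi1-/-), beside 24.2% and 18.2%, and with promoters of 1 kb the members with a promoter peak in both lists were 4, beside 6. With a q-value under 0.05 the member peaks labelled WT fell to 17. With a −log10 q of at least 5 there were 0 labelled WT and 1 labelled Bmi1-/-, of which 0% overlapped, and no share could be formed for WT. The number of members with a promoter peak labelled Bmi1-/- only rose from 1 to 2 with curated RefSeq transcripts and to 2 with a promoter of 1 kb. The number labelled WT only became 0 with a q-value under 0.05 and 2 with a promoter of 1 kb. Among the other tight junction genes, the number labelled WT only was 1 with a promoter of 1 kb, 3 with a q-value under 0.05 and 2 with the same number of strongest peaks from each list, beside 0. The median ratio of summit reads over *Ocln*, *Tjp1* and *Cgn* was 1.33 without scaling, where the median of all genes was 1.39. Without the 4 and 2 member peaks at least 55% identical to themselves at the best shift, chosen after seeing the data, the overlap was 24.1% (WT) and 14.3% (Bmi1-/-). No paired analysis was possible because each genotype had 1 library and the labels carry no replicate numbers; no replicate could be left out either.

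What limits these values is the depth: member summits held 14 to 32 reads, the lists end near the smallest of them, and a peak in 1 list only can be a small difference in reads. Genotype, library and pool cannot be told apart, and all directions rest on labels that the peak names contradict.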
